A study of Homo sapiens with 24 samples.

Results

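SH-SY5Y cells carrying the V79 8x transfection were compared with SH-SY5Y cells carrying the plain V79 transfection, and the difference was followed across the whole transcriptome rather than along the familiar interferon genes alone. The comparison takes its members from the array titles: 6 arrays titled V79 8x and 6 titled V79, each set lettered Exp B to G, so that 12 of the 24 arrays of the series were set against each other. SH-SY5Y is a human neuroblastoma line of noradrenergic character, and pCAGIG is a plasmid in which the CAG promoter drives an insert ahead of an internal ribosome entry site and GFP. V79 8x cells received pCAGIG that overexpresses the mutant FMR1 5′ UTR with 79 CGG repeats, and V79 cells received pCAGIG that expresses the same mutant 5′ UTR with 79 repeats. V21 cells, with 21 repeats, and Mock cells, with the empty plasmid, had 6 arrays each and entered the fit only through the shared estimate of the spread. All cells went through transfection, and RNA was taken 24 h later. The labels do not state what 8x counts, and the array names mark the groups V80x2 and V80. How many cells took up plasmid is not stated by the labels.

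The CGG repeat lies in the 5′ UTR of FMR1, and carriers of an intermediate expansion, called the premutation, can develop the tremor and ataxia syndrome FXTAS. The expanded RNA forms hairpins, and double-stranded RNA in the cytoplasm is sensed by RIG-I-like receptors and PKR. Type I interferon acts through its receptor, JAK kinases and transcription factors such as STAT2 and IRF9, and acts on promoters that hold an element called the ISRE. Beyond the antiviral effectors, interferon-linked genes include the machinery that cuts peptides and loads them on MHC class I, ubiquitin and ISG15 ligases, PARP enzymes and components of nuclear bodies.

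Levels are log2 intensities of the deposited series table, each gene is stood for by its brightest feature over all 24 arrays, and 15045 genes above the level limit of 6.43 were tested. A difference is V79 8x minus V79 on the log2 scale and is given ± its standard error, and an adjusted p is limma's with Benjamini-Hochberg adjustment over those 15045 genes, called below 0.05. Mean levels in V79 8x and V79 cells were 14.4 and 14.5 for HAND2, 16.5 and 16.4 for STMN2 and 13.02 and 13.06 for DBH, markers of the line. Its markers PHOX2A, at 8.17 and 8.13, and TH, at 8.25 and 8.39, were dimmer. The mesenchymal marker VIM was brighter than all of these, at 17.7 in both groups, and the glial marker S100B stood at 8.44 and 8.36. The immune marker CD14 stood at 7.6 in both groups, and PTPRC at 6.83 in V79 8x and 6.88 in V79 cells. The FMR1 feature ranged from 9.53 to 10.16 in V79 8x cells and from 9.40 to 10.40 in V79 cells, a difference of +0.06 ± 0.15 (adjusted p = 0.984). The annotation does not place that feature relative to the transfected stretch, so its level is not read as that of the transgene. The array V79 B stood apart: 1998 genes lay more than 0.5 from their group mean on it, against 85 to 275 genes on the other 11 arrays of both groups. Without V79 B, 140 genes rose and 20 fell, and 136 and 17 of those belong to the calls described here.

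In V79 8x cells, 153 genes rose (1.02% of those tested) and 20 fell (0.133%). The median difference over all genes was +0.005, the 10th percentile was −0.145 and the 90th was +0.14. The rises were large and the falls small: 63 genes rose by more than 1 and 26 by more than 2, while CERK and NFYA alone fell by more than 0.5. The groups did not overlap at all for 143 of the risers and 17 of the fallers, beside 1.6% of all genes higher without overlap and 0.459% lower without overlap. V79 8x exceeded V79 within all 6 experiment letters for 151 risers and was below it within all 6 for the 20 fallers. These genes were called on the same values, so both counts describe the calls and are no support. Of 8363 features that the annotation pairs with no gene, 18 rose (0.215%) and 2 fell (0.0239%). In bulk RNA, fewer responding cells and less RNA per cell cannot be told apart.

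**Figure D1:**
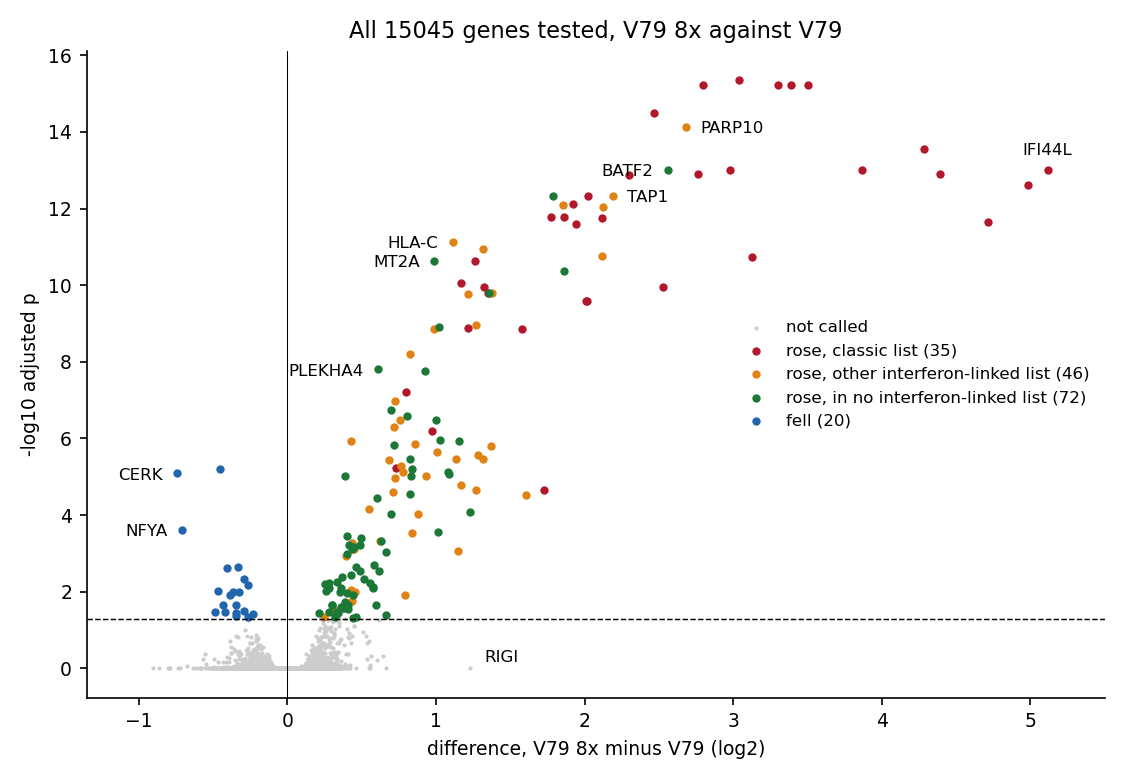
Each point is a gene tested, with its difference V79 8x minus V79 (log2) on the x axis and the −log10 adjusted p of limma on the y axis, and the dashed line marks 0.05. The 153 risers reach far to the right, with classic interferon-stimulated genes at the far end, while the 20 fallers stay close to 0 and CERK and NFYA lie farthest left.

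The 153 risers fell into 3 tiers. The classic interferon-stimulated list gave 35 risers out of 37 members tested, with a median rise of 2.12 and IFI44L at the top with +5.12 ± 0.24 (adjusted p = 9.9e-14). The other interferon-linked lists gave 46 risers out of 152 genes, with a median rise of 0.85. The remaining 72 risers stood in no interferon-linked list: 12 of them rose by more than 1, 22 by 0.5 to 1 and 38 by 0.5 or less. Outside the classic list, 118 genes rose in all, and 96 of these were called whichever of the 12 arrays was left out. The other 22 were lost without at least 1 array, 17 of them without V79 B. For 9 risers the V79 mean lay under the level limit, so that the filter kept them through the V79 8x arrays and they had to differ: the classic MX2, OAS1 and XAF1, and CXCL10, TRIM22, CFB, RTP4, ATP10A and PATL2. Their tests and their part in the counts are no support, and their differences are descriptions.

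RIGI, which encodes the RNA sensor RIG-I, and LGALS3BP were the 2 classic members not called. RIGI had 10.69 to 11.25 on the V79 8x arrays and 8.87 to 9.19 on 5 V79 arrays, but 13.27 on V79 B, which gave +1.23 ± 0.89 (adjusted p = 0.98). Without Mock D, V21 B, V21 C and V79 B, the arrays that stood apart in an earlier analysis of these data, the RIGI difference was +1.94 ± 0.16 (adjusted p = 2.94e-08). LGALS3BP differed by +0.37 ± 0.17 (adjusted p = 0.857), and by +0.44 ± 0.08 without those 4 arrays (adjusted p = 0.00314). The classic members OAS3, EPSTI1 and GBP1 lay under the level limit.

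The promoters of the risers were searched for the ISRE pattern, which is TTTC, then any 2 bases, then TTTC, and for the GAS pattern TTCNNNGAA, the element bound by STAT dimers. Both strands were searched in RefSeq sequence of build GRCh38.p14, over 300 bases around each gene start. Of 11834 tested genes with a promoter in that table, 332 (2.81%) held the ISRE pattern. Among risers with a promoter it was found in 18 of 27 classic genes (66.7%), 16 of 36 genes of the other interferon-linked lists (44.4%) and 8 of 53 genes in no interferon-linked list (15.1%). Among those 53 it was found in 3 of 8 genes that rose by more than 1 (37.5%), 4 of 15 that rose by 0.5 to 1 (26.7%) and 1 of 30 that rose by 0.5 or less (3.33%). With so few genes, these shares are not read as a trend. Of these matches, RTP4 among the largest rises and PATL2 among the smallest were tested only through their V79 8x levels. The same holds for the matches of CXCL10 and CFB in the other interferon-linked lists. None of 16 fallers with a promoter held the ISRE pattern. The GAS pattern was found in 6.47% of all promoters, 18 of 116 risers (15.5%) and 2 of 16 fallers (12.5%). The 2 patterns can share letters, and a match is a description of the sequence only. The 8 risers outside every interferon-linked list that hold the ISRE pattern are printed because they are the part of the response that the lists did not name, with TAP1 and B2M of the antigen presentation list for comparison. Each window reads 5′ to 3′ along the gene, the match is in capitals, and where a promoter holds several matches the one nearest to the gene start is given.
RTP4, chr3:187368359-187368384: cgaacaccGAAACTGAAActgtttgt
CARINH, chr5:132410915-132410940: tcgttgagGAAAATGAAAgcggtcgt
LAP3, chr4:17577007-17577032: gcactcagTTTCTATTTCccgggagt
NMI, chr2:151289814-151289839: aaagcagtTTTCTTTTTCactgtctt
GBP3, chr1:89022847-89022872: agaagtacTTTCAGTTTCattaggct
GIMAP2, chr7:150685699-150685724: ggttttacTTTCTTTTTCtcttggag
EXOC3L4, chr14:103094619-103094644: acttctctGAAAGTGAAAgtatgggg
PATL2, chr15:44711371-44711396: tttcccgtTTTCAGTTTCcttttctt
B2M, chr15:44711371-44711396: aagaaaagGAAACTGAAAacgggaaa
TAP1, chr6:32853815-32853840: gctttcgaTTTCGCTTTCccctaaat
RTP4, CARINH, EXOC3L4 and B2M carry the pattern on the opposite strand of the gene, as GAAA repeats, and the others on its own strand. PATL2 and B2M are neighbours read in opposite directions, and their windows are the same 26 bases of chromosome 15 seen from either strand. The GBP3, GIMAP2 and PATL2 matches start 2, 1 and 2 bases after the gene start, and the LAP3 match starts at position −183 from it.

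Antigen presentation was the widest of the non-classic groups, with 14 of 21 members tested higher and none lower past the threshold, and a list median of +0.55. TAP1, a subunit of the transporter that carries peptides into the endoplasmic reticulum, had 12.97, 13.41 and 13.73 as lowest, median and highest level in V79 8x cells, against 10.95, 11.18 and 11.39 in V79 cells. The groups did not overlap, and TAP1 rose by 2.19 ± 0.11 (adjusted p = 4.72e-13). Its partner TAP2 rose by 1.37 ± 0.16, although a second TAP2 feature showed +0.28. PSMB9, a catalytic subunit of the immunoproteasome, had 10.31, 10.81 and 11.14 in V79 8x cells, against 8.17, 8.77 and 8.81 in V79 cells. PSMB9 rose by 2.12 ± 0.13, with V79 B as the low array of the V79 group, and by 2.02 without that array. PSMB8, another catalytic subunit, rose by 1.31 ± 0.16, while the third, PSMB10, differed by +0.23 (adjusted p = 0.744). Of the proteasome activator, PSME2 rose by 0.43 ± 0.05 and PSME1 differed by +0.35 (adjusted p = 0.0659).

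Of the presenting molecules, HLA-B rose by 1.15 ± 0.20, HLA-C by 1.12 ± 0.07, HLA-E by 0.88 ± 0.13, HLA-G by 0.73 ± 0.07 and HLA-F by 0.39 ± 0.07. Other HLA-B features showed +1.27 and +1.44. B2M, the light chain they share, had 15.36, 15.59 and 15.85 in V79 8x cells, against 14.15, 14.92 and 15.08 in V79 cells, and rose by 0.79 ± 0.17 (adjusted p = 0.0118). Its 9 other features differed by 0.76 to 0.83. HLA class I genes resemble one another closely, and which of them a feature measures is uncertain. The trimming enzymes of the endoplasmic reticulum rose, ERAP2 by 0.63 ± 0.10 and ERAP1 by 0.44 ± 0.10, but the ERAP1 call was lost without V79 D or V79 8x G (adjusted p up to 0.059) and its other feature showed −0.12. TAPBP, or tapasin, rose by 0.39 ± 0.09, with other features between −0.12 and +0.15, and its call was lost without any of 6 arrays, at most with adjusted p = 0.0731 without V79 B. The general chaperones of the same pathway were not called: CALR differed by +0.01, CANX by −0.14 and PDIA3 by −0.15. NLRC5, the transactivator of MHC class I genes, differed by +0.55 (adjusted p = 0.19).

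**Figure D2:**
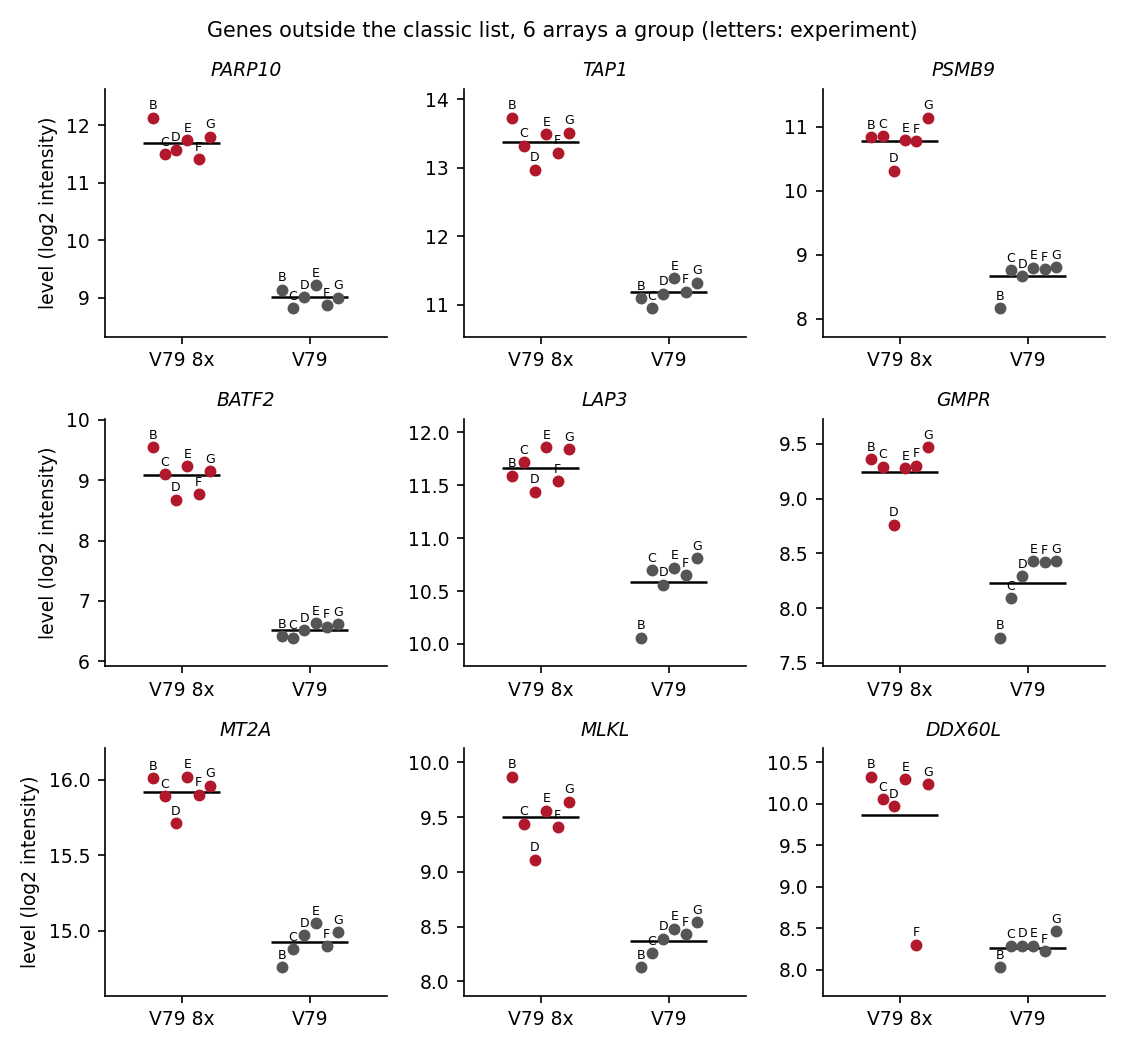
Levels (log2 intensity) of 9 genes outside the classic list on the 6 V79 8x arrays (left, red) and the 6 V79 arrays (right, grey), with the experiment letter above each point and the group mean as a line. The groups are apart for 8 of the genes, and for DDX60L the array V79 8x F lies at 8.30 among the V79 arrays.

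The ISG15 and ubiquitin ligase list gave 12 risers of 23 members tested and no faller, with a median of +0.69. Of these risers, ISG15, HERC5, HERC6 and USP18 are also in the classic list. ISG15 is a ubiquitin-like protein, and all steps of its attachment and removal were among the risers. Its activating enzyme UBA7 rose by 1.28 ± 0.15, its conjugating enzyme UBE2L6 by 1.17 ± 0.15, its ligase HERC5 by 1.58 ± 0.12 and its protease USP18 by 2.53 ± 0.17. HERC5 has 9 other features, which differed by 1.43 to 1.63. Of the TRIM ligases, TRIM25, which activates RIG-I, had 13.37, 13.71 and 14 in V79 8x cells, against 12.15, 12.30 and 12.48 in V79 cells, and rose by 1.38 ± 0.10 (adjusted p = 1.6e-10). TRIM14 rose by 1.27 ± 0.17, with 3 other features at +0.14, +0.54 and +1.22. TRIM21 rose by 0.77 ± 0.09 and TRIM56 by 0.69 ± 0.08, while TRIM22, at +0.72 ± 0.08, was tested only through its V79 8x level. TRIM5 (+0.31, adjusted p = 0.0601) and the giant ligase RNF213 (+0.57, adjusted p = 0.466) were not called.

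PARP10, a mono-ADP-ribosyltransferase, had the largest rise outside the classic list. Its levels were 11.41, 11.66 and 12.13 in V79 8x cells, against 8.82, 9.01 and 9.22 in V79 cells, a rise of 2.68 ± 0.11 or 6.42-fold (adjusted p = 7.44e-15). A dimmer PARP10 feature showed +0.76. PARP9 rose by 0.99 ± 0.08 and its partner ligase DTX3L by 1.01 ± 0.12. PARP10 and PARP9 were the 2 risers among 13 PARP family members tested, the list median was +0.09, and the DNA repair enzyme PARP1 differed by −0.22 (adjusted p = 0.907). PARP11, PARP12, PARP14 and PARP15 lay under the level limit and were not tested. ZC3HAV1, the zinc finger antiviral protein, lay just outside the threshold with +0.35 ± 0.09 (adjusted p = 0.052). Of 11 nuclear body genes tested, SP110 rose by 1.27 ± 0.10 and PML by 0.86 ± 0.10, whereas SP100 differed by +0.03 (adjusted p = 0.989).

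Among RNA and nucleotide effectors, 12 of 24 members tested rose and none fell, with a median of +0.40. Of these risers, DDX60, CMPK2, RSAD2 and ISG20 are also in the classic list. HELZ2, a helicase and coactivator, had 13.26, 13.58 and 13.93 in V79 8x cells, against 11.28, 11.52 and 11.62 in V79 cells, and rose by 2.12 ± 0.11 (adjusted p = 9.02e-13). Its 2 dimmer features showed +0.40 and +0.12. The translation inhibitors SAMD9L and SAMD9 rose by 1.86 ± 0.10 and 1.22 ± 0.09. DDX60L, a helicase-like protein, had 8.30, 10.15 and 10.33 in V79 8x cells, against 8.03, 8.29 and 8.46 in V79 cells. It rose by 1.61 ± 0.22 (adjusted p = 3.05e-05), with V79 8x F alone at the level of the V79 arrays. PNPT1, a mitochondrial exoribonuclease, rose by 0.93 ± 0.12, ZNFX1, a helicase, by 0.76 ± 0.08, the double-stranded RNA editor ADAR by 0.71 ± 0.10 and the cytidine deaminase APOBEC3F by 0.45 ± 0.08. SAMHD1 (+0.28, adjusted p = 0.98) and TREX1 (+0.29, adjusted p = 0.788) were not called.

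Of 19 genes of nucleic acid sensing, 7 rose. TLR3, the receptor of double-stranded RNA, rose by 0.78 ± 0.10 and the transcription factor IRF1 by 0.55 ± 0.08. The other risers, IRF7, IRF9, IFIH1, DHX58 and EIF2AK2, are also in the classic list. The upstream adaptors and kinases were not called, with MAVS at −0.13, STING1 at +0.01 and TBK1 at +0.17, each with adjusted p of at least 0.98. Of 17 receptor and JAK-STAT genes tested, STAT2, also in the classic list, rose by 0.80 ± 0.08 and the feedback inhibitor SOCS1 by 0.43 ± 0.09. The receptor chains IFNAR1 and IFNAR2 differed by +0.02 and −0.06. The median of that list was +0.02, and −0.01 without V79 B. Secreted factors gave 2 risers of 11 tested. CXCL10, a chemokine for T cells, had 7.18, 7.45 and 7.76 in V79 8x cells, against 5.97, 6.14 and 6.27 in V79 cells. All 6 V79 arrays were under the level limit, so CXCL10 was tested only through its V79 8x level, and its difference of +1.31 ± 0.08 is a description. The cytokine IL15 rose by 0.45 ± 0.10, and with no filter on dim genes the list had 4 risers. IFNB1, IFNL1, IFNL3, IL6, TNF, CXCL9, CXCL11 and CCL5 lay under the level limit and were not tested, and IFNL2 differed by −0.11 (adjusted p = 0.98).

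Of 12 complement and acute phase genes tested, 4 rose. PLSCR1, a phospholipid scramblase that is also in the classic list and is no complement gene, rose by 2.01 ± 0.14. The complement proteases C1S and C1R rose by 0.84 ± 0.13 and 0.25 ± 0.06, and factor B (CFB), at +0.73 ± 0.09, was tested only through its V79 8x level. The C1R call did not hold without any 1 of 10 arrays, with adjusted p up to 0.148 without V79 C, and a second C1S feature showed +0.06. Cell death genes rose in 5 of 20 cases. MLKL, the executor of necroptosis, had 9.11, 9.50 and 9.87 in V79 8x cells, against 8.13, 8.41 and 8.54 in V79 cells, and rose by 1.13 ± 0.14 (adjusted p = 3.49e-06). XAF1, also in the classic list and tested only through its V79 8x level, differed by +2.47 ± 0.10. APOL2 rose by 0.82 ± 0.07, the inhibitor of apoptosis BIRC3 by 0.44 ± 0.07 and the inflammatory caspase CASP4 by 0.31 ± 0.07, the last with a call lost without any of 8 arrays (adjusted p up to 0.104, without V79 8x G). The kinase RIPK1, which acts before MLKL, differed by +0.11, CASP8 by +0.03 and FAS by +0.26, and none was called.

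Among the 72 risers in no interferon-linked list, BATF2 came first. This tier is bounded by the content of the lists, and whether its genes answer to interferon was not tested. BATF2 is a basic leucine zipper transcription factor, and its levels were 8.68, 9.13 and 9.55 in V79 8x cells, against 6.39, 6.54 and 6.63 in V79 cells. It rose by 2.56 ± 0.12 (adjusted p = 9.9e-14), its groups did not overlap, and its V79 levels lay close to the limit of 6.43, with no background measure deposited. NMI, a partner of MYC and STAT proteins, rose by 0.83 ± 0.11, and its 9 other features differed by 0.79 to 0.90. CARINH, a long noncoding RNA beside IRF1, rose by 1.16 ± 0.13, although its 3 dimmer features showed −0.02 to +0.32. RTP4, a chaperone that helps receptors to the cell surface, had 7.25, 7.64 and 7.82 in V79 8x cells, against 6.08, 6.24 and 6.44 in V79 cells, and differed by +1.36 ± 0.09, with a V79 mean under the level limit.

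LAP3, a leucine aminopeptidase, had 11.44, 11.66 and 11.86 in V79 8x cells, against 10.06, 10.68 and 10.81 in V79 cells, and rose by 1.08 ± 0.14 (adjusted p = 7.38e-06). GMPR, which converts GMP to IMP, had 8.76, 9.30 and 9.47 in V79 8x cells, against 7.73, 8.36 and 8.43 in V79 cells, and rose by 1.01 ± 0.16 (adjusted p = 0.000274). Both genes were lowest on V79 B among the V79 arrays, and without it LAP3 rose by 0.98 and GMPR by 0.91. IL4I1, an amino acid oxidase, rose by 1.03 ± 0.11 and was at 8.74 to 9.43 in V79 8x cells and at 7.84 to 8.24 in V79 cells. ATP10A, a phospholipid flippase, differed by +1.02 ± 0.08, with means under the level limit in V79, V21 and Mock cells and a dimmer feature at +0.02. The signalling adaptor THEMIS2 rose by 1.09 ± 0.14, and by 0.999 without V79 B. The features named USP41P (+1.86 ± 0.12), IFITM4P (+1.79 ± 0.09) and HLA-J (+1.23 ± 0.18) belong to pseudogenes that resemble USP18, the IFITM genes and HLA class I genes, and signal from those relatives on these features cannot be told apart from their own.

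Smaller rises in this tier, picked after their values were seen, were for genes with known places in the cell. LAMP3, a lysosomal membrane protein, rose by 1.003 ± 0.10 and was the larger of the 2 risers among 29 genes of autophagy and lysosome tested. The autophagy receptor OPTN rose by 0.28 ± 0.06, while SQSTM1 differed by +0.35 (adjusted p = 0.794), LAMP1 by +0.07, LAMP2 by +0.07, CTSB by +0.14 (adjusted p = 0.98 each) and CTSD by +0.02 (adjusted p = 0.993), none of them called, and the list median was +0.07. Outside that list, and with no list fixed for them, the lipase LIPA rose by 0.62 ± 0.12, the glycoprotein GPNMB by 0.60 ± 0.08, the thiol reductase IFI30 by 0.50 ± 0.08, the acid phosphatase ACP5 by 0.49 ± 0.08 and the cathepsin CTSO by 0.46 ± 0.09. UNC93B1, which escorts Toll-like receptors to endosomes, rose by 0.56 ± 0.11. TDRD7, a Tudor domain protein, rose by 0.83 ± 0.11, the epoxygenase CYP2J2 by 0.70 ± 0.10, the cap methyltransferase CMTR1 by 0.58 ± 0.11 and the transcription cofactor LMO2 by 0.58 ± 0.12. The 9 other features of TDRD7 differed by 0.83 to 0.89, and those of CYP2J2 by 0.71 to 0.81. Whether such sets of features, also those of B2M, HERC5, NMI and NGEF, repeat the same probe was not checked. Their closeness is therefore no separate support. CNP, an enzyme of myelinating glia that other cells also make, was the 1 riser among 4 glial markers tested, with +0.42 ± 0.07, and S100B differed by +0.08 (adjusted p = 0.98).

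The metallothioneins, which hold zinc and copper, formed a group of even size. Of 14 metal response genes tested, 8 rose and none fell, and all 8 are metallothioneins. MT2A had 15.71, 15.93 and 16.02 in V79 8x cells, against 14.76, 14.94 and 15.05 in V79 cells, and rose by 0.99 ± 0.06 (adjusted p = 2.35e-11). MT1L rose by 0.92 ± 0.08, MT1B by 0.84 ± 0.10, MT1H by 0.83 ± 0.10, MT1E by 0.81 ± 0.08, MT1X by 0.72 ± 0.08, MT1A by 0.70 ± 0.07 and MT1M by 0.66 ± 0.16. The MT1M call did not hold when any 1 of 8 arrays was left out (adjusted p up to 0.145, without V79 8x E), and dimmer features of MT1H, MT1X and MT1E showed −0.03, 0.00 and +0.42, the last with adjusted p = 0.105 in limma over all named features. MT1F (+0.16, adjusted p = 0.816) and the neuronal MT3 (−0.16, adjusted p = 0.981) were not called, nor were the zinc sensor MTF1 (+0.11) and the zinc exporter SLC30A1 (+0.05). MT1 genes are nearly identical, so how many of them moved is uncertain. None of the 4 risen metallothioneins with a promoter in the table held the ISRE pattern.

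Of 28 p53 targets tested, 25 were higher in V79 8x cells, 2 were called and the list median was +0.14, with 9 higher and 1 lower at an unadjusted p under 0.05. Among all 15045 genes tested, 828 had an unadjusted p under 0.05 in limma, in either direction, and the median difference was +0.005. GDF15, a stress cytokine, had 13.29, 13.38 and 13.54 in V79 8x cells, against 12.62, 12.77 and 12.87 in V79 cells, and rose by 0.63 ± 0.10 (adjusted p = 0.00048). SPATA18 rose by 0.41 ± 0.09, a call lost without any of 5 arrays (adjusted p up to 0.0786, without V79 8x E). Of 17 NF-kB targets, BIRC3 and the adhesion molecule ICAM1 (+0.36 ± 0.08) rose. The ICAM1 call did not hold when any 1 of 5 arrays was left out (adjusted p up to 0.0775, without V79 8x B). Of 35 genes of the integrated stress response, NUPR1, a stress-induced chromatin protein, rose by 0.45 ± 0.08 and the glycine transporter SLC6A9 by 0.36 ± 0.08, with the other SLC6A9 feature at −0.06. None of 22 endoplasmic reticulum chaperones and none of 25 heat shock genes was called by limma, 0 of either list had an unadjusted p under 0.05, and their medians were +0.02 and +0.05.

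Among the 20 fallers no gene stood in an interferon-linked list, where 2 of 189 genes were lower at an unadjusted p under 0.05 in limma. CERK, the kinase that phosphorylates ceramide, had 10.23, 10.31 and 10.60 in V79 8x cells, against 10.97, 11.09 and 11.38 in V79 cells, and fell by 0.74 ± 0.09 (adjusted p = 8.13e-06). It was the 1 called gene among 25 sphingolipid enzymes tested. NFYA, the DNA-binding regulatory subunit of the CCAAT factor NF-Y, had 9.23, 9.39 and 9.56 in V79 8x cells, against 9.85, 10.11 and 10.30 in V79 cells, and fell by 0.71 ± 0.11 (adjusted p = 0.00024). A second NFYA feature showed −0.09, and the other 7 NF-Y and CCAAT genes tested were not called. PMEPA1, an inhibitor of TGF-beta signalling, had 11.32, 11.43 and 11.62 in V79 8x cells, against 11.82, 11.90 and 11.96 in V79 cells. PMEPA1 fell by 0.45 ± 0.06 (adjusted p = 6.12e-06), its other feature also showed −0.45, and the activin subunit INHBA of the same list of 28 rose by 0.37 ± 0.09, a call lost without any of 6 arrays (adjusted p up to 0.0922, without V79 8x G).

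Of the smaller falls, 7 more were called whichever array was left out. These were NT5DC2 (−0.46 ± 0.10), the membrane raft protein MALL (−0.40 ± 0.08), neurogranin (NRGN, −0.37 ± 0.08), a postsynaptic calmodulin-binding protein, the small GTPase GEM (−0.34 ± 0.06), the RNA-binding protein HNRNPA0 (−0.32 ± 0.07), the neuronal guanine exchange factor NGEF (−0.29 ± 0.06) and the delta opioid receptor OPRD1 (−0.26 ± 0.05). NGEF has 10 other features, of which 9 differed by −0.15 to −0.28 and 1 by +0.03. The remaining 10 falls were not called in every fit with an array left out. PRR11 fell by 0.49 ± 0.12, a call lost without any of 10 arrays (adjusted p up to 0.124, without V79 8x E). ACO1, the iron-regulated aconitase, had 9.25, 9.28 and 9.47 in V79 8x cells, against 9.60, 9.75 and 9.92 in V79 cells, and fell by 0.43 ± 0.10, a call lost without any of 7 arrays (adjusted p up to 0.0774, without V79 G). MTURN (−0.39 ± 0.08) was lost without V79 8x G (adjusted p = 0.0501), and its other feature showed −0.14.

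The histone genes H4C13 (−0.42 ± 0.10) and H4C3 (−0.29 ± 0.07) were lost without any of 7 and 9 arrays, each most clearly without V79 8x B (adjusted p = 0.113 and 0.109). The immediate early genes EGR1 (−0.35 ± 0.09) and ARC (−0.35 ± 0.08) were each lost without any of 9 arrays, with adjusted p up to 0.142 without V79 F for EGR1 and 0.0971 without V79 C for ARC. The long noncoding RNA LOC283731 (−0.35 ± 0.08) did not hold when any 1 of 6 arrays was left out (adjusted p up to 0.0865, without V79 8x E). The neuropeptide VIP (−0.23 ± 0.06) was lost without any of 10 arrays and ARHGAP19 (−0.26 ± 0.07) without any of 11, with adjusted p up to 0.142 and 0.163, both without V79 D. Dimmer ARHGAP19 features showed +0.01 and −0.21. The number of fallers was 11 without V79 8x G, 12 without V79 8x C, V79 8x E, V79 C or V79 F, and 13 without V79 E or V79 G.

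**Figure D3:**
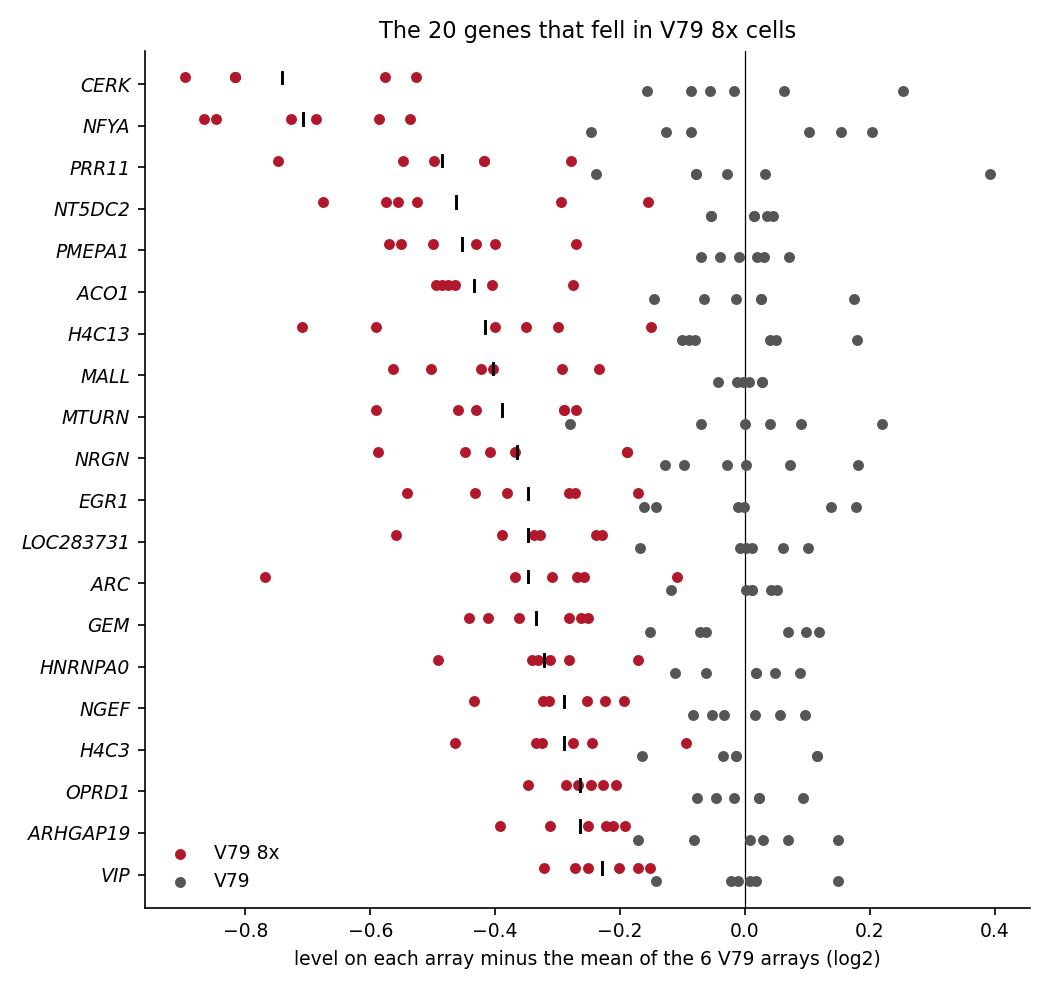
Each row is a gene that fell, with its level on the 6 V79 8x arrays (red, upper) and the 6 V79 arrays (grey, lower) minus the mean of the V79 arrays, in log2. Black bars mark the mean of the V79 8x arrays, the groups overlap for ARC, H4C3 and MTURN, and the largest falls are those of CERK and NFYA.

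Some lists leaned downwards with hardly a call. As background, 828 of all 15045 genes tested had an unadjusted p under 0.05 in limma, in either direction. The median difference over all genes was +0.005. The share of all genes that were lower is not given, so counts of lower members have only that median as background. Of 54 replication-dependent histone genes tested, 51 were lower in V79 8x cells, 2 were called and 14 were lower at an unadjusted p under 0.05 in limma, with a list median of −0.23, and −0.19 without V79 B. The mean level of that list lay between 12.65 and 12.85 on the V79 8x arrays and between 12.84 and 13.31 on the V79 arrays. Histone genes are close copies that share signal, so the 54 are not separate measurements. Of 33 G2 and mitosis genes, 31 were lower, 10 of them at an unadjusted p under 0.05, and the median was −0.12. PRR11 alone was called, no gene of that list was called without V79 B, and 9 fell with array weights. Of 27 S phase genes, 20 were lower and none was called by limma, with 1 at an unadjusted p under 0.05 and a median of −0.08. Oxidative phosphorylation (40 tested) and ribosomal protein genes (37 tested) had medians of +0.03 and +0.03 with no call and 0 genes at an unadjusted p under 0.05 in limma, and both medians were below 0 without V79 B (−0.01 and −0.03). Cholesterol genes (24 tested) had no call in limma, 5 genes at an unadjusted p under 0.05 and a median of −0.06. Of 28 noradrenergic identity genes, NRGN and VIP fell and none rose.

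**Figure D4:**
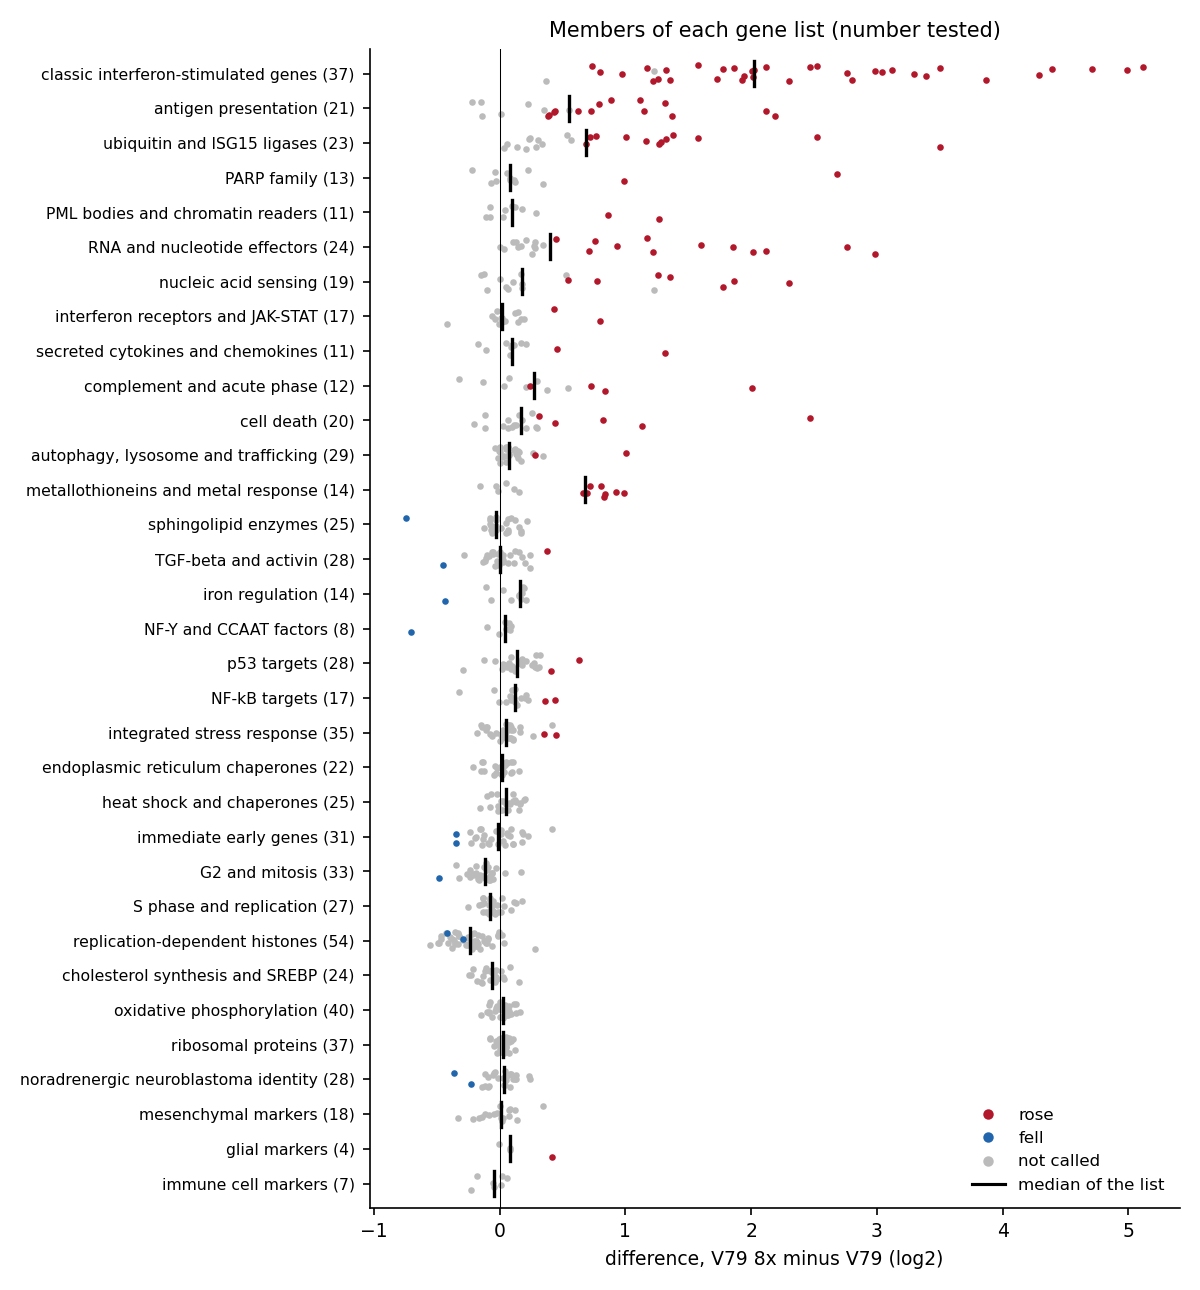
Each row is a gene list with the number of members tested, each point a member's difference V79 8x minus V79 (log2), red where it rose, blue where it fell and grey where it was not called, and the black bar is the list's median. Rises gather in the interferon-linked lists and the metallothioneins, and lists of housekeeping and cell identity genes lie around 0.

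The other transfections give the levels side by side. PARP10 averaged 11.69 ± 0.26 in V79 8x cells, 9.01 ± 0.15 in V79, 8.87 ± 0.18 in V21 and 8.87 ± 0.17 in Mock cells (SD, n = 6 each). MT2A averaged 15.92 ± 0.11 in V79 8x, 14.93 ± 0.10 in V79, 14.84 ± 0.07 in V21 and 14.85 ± 0.10 in Mock cells. CERK averaged 10.39 ± 0.15 in V79 8x, 11.13 ± 0.14 in V79, 11.10 ± 0.20 in V21 and 11.17 ± 0.14 in Mock cells. Of the 153 risers, 151 were also above Mock past the threshold (background 1.71% of genes) and 151 above V21 (2.19%), and of the 20 fallers 17 were below Mock (0.485%) and 20 below V21 (0.678%). These comparisons share the V79 8x arrays, so they are not independent. The fallers not below Mock past the threshold were ARC, MTURN and NRGN, at −0.30, −0.21 and −0.26 from Mock (adjusted p = 0.0658, 0.355 and 0.106). Between V79 and Mock cells limma called 1 of all genes (0.00665%), higher in V79, and that gene was not among the 173.

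The experiment letters gave no steady pairing of the samples, so differences within a letter describe pairs of arrays and not a response per experiment. The median over the 35 classic risers was 2.60 in experiment B and 1.85 in D, the lowest. Over the 46 risers of the other interferon-linked lists it was 1.14 in B and 0.70 in D and F, and over the 72 risers in no such list it was 0.66 in B and 0.40 in F. Over all genes tested the median was +0.1 in B and between −0.04 and +0.03 in the others. The array V79 8x B had the highest V79 8x level for 80 of the 153 risers and V79 8x D the lowest for 86, while V79 B had the lowest V79 level for 72. For the 72 risers in no interferon-linked list, V79 8x B was highest for 38 and V79 8x D lowest for 33. The 20 fallers kept medians between −0.30 in F and −0.42 in G. These genes were called on the same values, so the medians describe the calls. The ISRE shares of the tiers are drawn beside them.

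**Figure D5:**
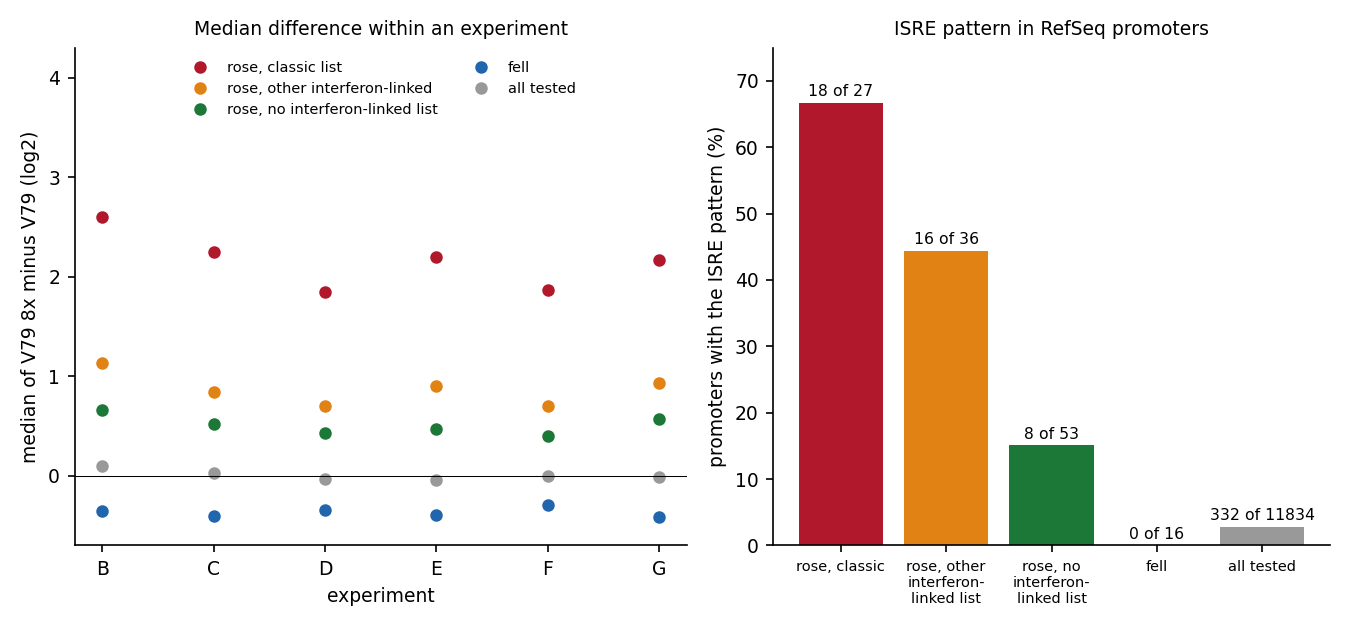
Left, the median difference V79 8x minus V79 (log2) within each experiment B to G for the risers of each tier, the fallers and all genes tested. Right, the percentage of RefSeq promoters with the ISRE pattern in the same sets, with the counts above the bars; experiments B and D give the highest and lowest classic medians, 2.60 and 1.85.

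Some risers lay side by side in the genome. Of all genes tested 1.02% rose, and how many neighbours that share alone would give was not computed. In the order of the genes tested, 52 of the 153 risers were next to another riser, in 20 runs, and no faller was next to another faller. The longest run was MT2A, MT1L, MT1E, MT1M, MT1A and MT1B on chromosome 16. As MT1 genes are nearly identical, how many of that run moved is uncertain. LIPA stood beside IFIT2, IFIT3, IFIT1 and IFIT5 on chromosome 10, and TAP2, PSMB8, TAP1 and PSMB9 lay together on chromosome 6. Other neighbours were BACE2 with MX2 and MX1 on chromosome 21, PPM1K with HERC6 and HERC5 on chromosome 4, REC8 with IRF9 on chromosome 14 and PATL2 with B2M on chromosome 15. Among the neighbours of classic genes, LIPA rose by 0.62 ± 0.12 and REC8 by 0.40 ± 0.07. PPM1K (+0.60 ± 0.14) and BACE2 (+0.28 ± 0.07) rose too, but each call rested on single arrays, 7 and 10 of them (adjusted p up to 0.0754 without V79 8x B and 0.109 without V79 B). PATL2 (+0.39 ± 0.09) was tested only through its V79 8x level, so its difference is a description. Its call was also lost without any of 5 arrays (adjusted p up to 0.0648 without V79 8x G).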

How the data were processed

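RNA of SH-SY5Y cells was labelled with Cy3 from 100 ng per sample, per the labels' protocols, and hybridised to 1-colour Agilent arrays. The authors deposited log2 values of 62976 features on 24 arrays; the log base is inferred from the range of 5.65 to 18.9, and the sorted values differ by at most 0.01 between arrays, so all arrays share 1 distribution. Neither background correction nor the scaling method is stated by the labels. Features were named by the platform annotation, updated through RefSeq accessions: 37051 had 1 gene and 25925 none, giving 20061 genes. The brightest feature stood for a gene, the dimmest 25% of genes were left out, and limma 3.58.1 in R 4.3.3 fitted the 4 groups over 24 arrays with no covariate, two-sided, with Benjamini-Hochberg adjustment over 15045 genes. The design text calls the 6 arrays of a group biological replicates, and their number limits the precision. Named genes were every faller, the 10 largest rises, the 20 largest outside the classic list, the 15 largest in no interferon-linked list, and per list up to 4 called members or 2 others with the smallest p. Members and lists were chosen with earlier results of these data known. Experiment letters gave no steady pairing of the samples: same-letter deviations correlated at 0.43 in B, −0.06 in C, −0.01 in D, −0.20 in E, 0.29 in F and 0.33 in G. The median correlation with other letters was −0.17 in B, 0.17 in C, −0.26 in D, −0.01 in E, 0.13 in F and 0.18 in G. The same letter was the best match for B and G only. Alternatives covered the arrays in the fit, a letter block, filters, features, variance model, weights, centring and each array left out. Promoter letters come from RefSeq, GRCh38.p14.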

Additional observations from a re-analysis of the deposited data

Results flagged for a closer look

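Values of 108 named genes were looked at within each group of 6 arrays, 216 groups in all, for a highest or lowest array whose gap to the next exceeded Dixon's critical value for the share of the group's range. Chance gives about 1 in 20 such groups, and 18 were found, 9 of them on V79 B. On V79 B, CARINH stood at 7.79 (8.26 to 8.53 on the other V79 arrays), LAP3 at 10.06 (10.56 to 10.81), PSMB8 at 7.47 (8.14 to 8.37), PSMB9 at 8.17 (8.67 to 8.81), SP110 at 10.13 (10.45 to 10.54), THEMIS2 at 7.49 (7.89 to 8.12), UBE2L6 at 9.27 (9.80 to 10.10) and USP41P at 6.63 (7.11 to 7.28), all low, while FKBP4 stood high at 11.83 (11.57 to 11.63). On V79 G, CD3E stood high at 7.77 (6.23 to 6.64) and ARC low at 8.78 (8.90 to 8.95). Among V79 8x arrays, ICAM1 at 11.58, IRF7 at 14.86 and SOCS1 at 8.57 were high on B, GMPR at 8.76 and USP41P at 8.49 were low on D, and on F DDX60L was low at 8.30 (9.97 to 10.33) and MCM5 high at 12.64. Each array of both groups was left out in turn, but the outcome without the flagged array is given for some of these genes only, such as PSMB9, LAP3, THEMIS2 and ICAM1.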

How the results depend on the processing

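With array weights 311 genes rose and 150 fell, all 153 risers and 20 fallers among them, and with a weight for each array 38 features with no gene rose and 9 fell. Without Mock D, V21 B, V21 C and V79 B, 222 rose and 52 fell, sharing 152 and 20 with the calls above, and 31 features with no gene rose and 8 fell. Requiring a difference of at least 0.5 as well left 105 risers, 2 fallers and no falling feature without a gene. Each array left out in turn gave 135 to 150 risers, 11 to 20 fallers and 0 to 2 falling features with no gene. Those 2 features were 0 with only the 12 arrays of both groups in the fit, and 1 with the dimmest 50% left out, the intensity trend or the replicate block. The letters gave no steady pairing of the samples. The replicate block, with the experiment letter fixed, gave 163 risers and 22 fallers, of which 143 and 16 are among the calls above. Apart from array weights, the 4 arrays left out, the size limit and single arrays left out, 10 alternatives remained. In these, 103 to 179 genes rose and 18 to 26 fell. The replicate block and the first digit of the array name's ending as a block were among them. The not called FMR1 difference changed sign without V79 G (−0.0237), V79 E (−0.0277) or V79 8x D (−0.0033) and ranged from −0.0277 to +0.1723 with an array left out, and that of CD3E changed sign without V79 G (+0.039) within −0.269 to +0.039. Array signal over background is not in the deposited table, so dim genes such as CXCL10 in V79 cells, under the level limit of 6.43, may have understated differences; the cause of these changes was not tested.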

Other observations

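Among the 18 features with no gene that rose in V79 8x cells by the same limma test, 9 lay close together, with differences from 1.98 to 2.03 and mean levels of 11.39 to 11.86 in V79 8x cells, against 9.41 to 9.86 in V79 cells, and another was near them with +1.88 ± 0.13. Whether these repeat the same probe was not checked, so the 18 may stand for fewer transcripts. The brightest unnamed riser averaged 16.29 in V79 8x cells and 15.79 in V79 cells, a difference of +0.51 ± 0.06 (adjusted p = 4.13e-05).

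Among genes that passed the threshold only without Mock D, V21 B, V21 C and V79 B were the complement inhibitor SERPING1 (+0.46, adjusted p = 0.02), the nucleotide hydrolase SAMHD1 (+0.40, adjusted p = 0.00587), the ligase RNF213 (+0.61, adjusted p = 0.0114) and the immediate early genes EGR2 (−0.30, adjusted p = 0.00225) and EGR3 (−0.25, adjusted p = 0.0245). These were picked after their values were seen.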
